A study of Homo sapiens with 9 samples.

Results

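Abundant structural RNAs are short noncoding RNAs that serve as scaffolds, guides or catalysts of the cell's housekeeping particles. The 10 considered here were taken by gene name from the table deposited for H1 human embryonic stem cells: RN7SK, RN7SL1, RN7SL2, RMRP, RPPH1, RNY1, RNY3, RNY4, TERC and VTRNA1-1. They occupy 12 of its 60829 rows, because RMRP and RPPH1 each have 2 rows. The names fixed the choice, and no measured value entered it.

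The knockout group held 5 libraries of an H1 clone that carries a knockout of HERVHlin, a locus of the HERV-H endogenous retrovirus family labelled with chromosome X, and the control group held 4 libraries of an H1 clone with the genotype label WT. H1 is an established line, and all cells were grown in mTESR on vitronectin. Each group was 1 clone sampled at successive passages, which the design text counts as technical replicates and the titles as biological ones, so p-values measure the spread between passages and a clone cannot be told apart from its genotype. In bulk RNA of this kind, fewer cells of a type and less RNA per cell cannot be told apart. Under its treatment tag every library is described as differentiated cells, although the medium is one for stem cells. The 9 pluripotent marker genes looked up summed to between 31439 and 46983 normalized counts in knockout libraries and between 36189 and 77593 in control libraries, none was called and none was at 0 in all libraries. Markers of neural ectoderm summed to 753 to 1063 in knockout libraries and 650.3 to 1603 in control libraries, and those of fibroblasts to 951 to 1460.1 in knockout libraries and 1084 to 1790.4 in control libraries. Sums were lower for mesoderm, at 36.1 to 55.6 in knockout libraries and 43.4 to 72.3 in control libraries, and for endoderm, at 30.2 to 271 in knockout libraries and 74.1 to 234 in control libraries. Those tested were 2 of 5 neural ectoderm, 4 of 6 fibroblast, 2 of 5 mesoderm and 1 of 5 endoderm genes. The others had too few reads for a test. None of the tested markers was called, and the part of the markers in the results was not tested.

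RN7SL1 and RN7SL2 encode 7SL, the RNA scaffold of the signal recognition particle, which brings ribosomes that make secreted and membrane proteins to the endoplasmic reticulum. RN7SK encodes 7SK, which with HEXIM1, LARP7 and the capping enzyme MEPCE holds the elongation kinase P-TEFb inactive. RPPH1 is the catalytic RNA of RNase P, which trims the 5′ leaders of tRNA precursors, and RMRP is the RNA of the related RNase MRP, which acts in ribosomal RNA maturation. RNY1, RNY3 and RNY4 are Y RNAs, partners of the RO60 and La proteins. TERC is the template RNA of telomerase, and VTRNA1-1 is a vault RNA. RNA polymerase III transcribes all of these except TERC, a product of RNA polymerase II.

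Reference sequences of some of the RNAs are shown first because reads from such RNAs can be matched to several rows. They come from GENCODE 29 on GRCh38, whose gene IDs and versions are those of the table for the 12 rows. Both 7SL genes lie on chromosome 14, RN7SL1 inside an intron of RPS29 on the other strand, and over the 299 bases of RN7SL1 the pair differ at 4 positions.

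The RMRP rows are nested at chr9:35657751-35658018 on the minus strand. The row typed as a lncRNA (ENSG00000269900) has 268 bases, and it holds the whole 264 bases of the row typed as a ribozyme (ENSG00000277027). Capitals in the sequence mark the 4 bases that only the longer row has.
RMRP: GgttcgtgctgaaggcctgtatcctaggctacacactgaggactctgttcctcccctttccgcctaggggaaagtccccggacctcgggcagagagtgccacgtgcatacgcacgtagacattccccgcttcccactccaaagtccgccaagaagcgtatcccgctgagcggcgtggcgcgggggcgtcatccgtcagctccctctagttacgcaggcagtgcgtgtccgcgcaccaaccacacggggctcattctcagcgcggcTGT

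The Y RNA genes lie close together on chromosome 7, with RNY4 at chr7:148963315-148963410 on the plus strand and RNY1 at chr7:148987136-148987248 on the minus strand. RNY1 and RNY4 differ in length and in their loops, and they share the first 11 bases, in capitals, which belong to the strand of the stem that RO60 recognises.
RNY1: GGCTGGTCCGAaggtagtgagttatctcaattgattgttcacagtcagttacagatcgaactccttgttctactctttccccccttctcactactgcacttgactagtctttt
RNY4: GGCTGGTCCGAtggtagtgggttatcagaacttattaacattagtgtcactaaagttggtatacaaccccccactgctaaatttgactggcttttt

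The 5′ parts of RN7SK and TERC carry the letters for which these RNAs are known. RN7SK lies at chr6:52995621-52995948 on the plus strand, and GATC, the DNA spelling of the motif that HEXIM1 binds in its 5′ hairpin, stands in capitals 3 times in its first 100 bases, starting at bases 12, 41 and 63. GATC reads the same on both strands, and as many matches were found in the first 100 bases of 0.286% of 203677 GENCODE transcripts of at least that length. TERC lies at chr3:169764520-169765060 on the minus strand, and the telomere template CTAACCCTAAC, in capitals, spans its bases 46 to 56. That motif was searched on both strands, was not found on the other, and occurs in the same window of 0.00393% of the 203677 transcripts.
RN7SK: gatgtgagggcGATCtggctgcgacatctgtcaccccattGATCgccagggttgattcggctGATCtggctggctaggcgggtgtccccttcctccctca
TERC: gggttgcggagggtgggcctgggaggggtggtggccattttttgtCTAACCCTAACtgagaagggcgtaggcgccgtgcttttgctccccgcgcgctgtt

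The vault RNA genes VTRNA1-1 at chr5:140711275-140711373 and VTRNA1-3 at chr5:140726158-140726246, both on the plus strand, are shown together because VTRNA1-3, a family row outside the 10 names, is compared with VTRNA1-1. Capitals mark the match to GTTCGANNC, letters of the internal B box that recruits RNA polymerase III, which starts at base 67 of VTRNA1-1 and base 57 of VTRNA1-3. The search covered both strands, and a match was found in the first 99 bases of 0.361% of 203760 transcripts and in the first 89 bases, the length of VTRNA1-3, of 0.326% of 204460.
VTRNA1-1: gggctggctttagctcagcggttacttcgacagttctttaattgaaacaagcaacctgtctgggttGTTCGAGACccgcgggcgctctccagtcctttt
VTRNA1-3: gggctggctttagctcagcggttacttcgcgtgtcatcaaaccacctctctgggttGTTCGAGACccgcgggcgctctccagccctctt

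How far a row owns its sequence was measured as the share of its stretches of 31 bases that occur in no other GENCODE 29 gene. That share was 91.3% for VTRNA1-1, 50.2% for the longer RPPH1 row, 20.2% for TERC, 9.09% for RNY4, 5.19% for RN7SL2, 4.82% for RNY1 and 1.68% for the longer RMRP row. It was 0 for RN7SK, RN7SL1, RNY3 and the shorter RMRP and RPPH1 rows. The search took in every GENCODE 29 gene, with or without a row in the table. It read each transcript on its own strand only, so overlap with a gene on the other strand was not counted. For RN7SL1 all stretches lie in AL139099.4, for which no row was found. RN7SL1 shared at least 1 stretch with 505 other genes, RN7SL2 with 494, RNY3 with 135 and RN7SK with 106. Reads from a shared stretch could be given to more than 1 row, and how kallisto, which the submitters' processing notes name, divided them was not tested.

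The table gives normalized counts, which are reads divided by 1 size factor per library. Whole reads recovered from it numbered 21434888 to 31192630 per knockout library and 19838682 to 30388797 per control library. The structural RNAs took a large part of them. In knockout libraries 1 to 5 the 12 rows held 9.08%, 14.8%, 17.3%, 11.96% and 12.1% of the reads, and in control libraries 1 to 4 they held 18.1%, 16.0%, 19.4% and 11.7%. The groups overlapped, with control 4 below 4 of the knockout libraries. The 95% Wilson interval of the lowest share ran from 9.07% to 9.09% and covers counting error only. Knockout 1, the lowest, gave 52.9% of its reads to rows of microRNA type, and control 3, the highest, 12.3%. Without those rows the shares ran from 15.4% to 23.7% in knockout libraries and from 16.3% to 24.9% in control libraries.

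**Figure D1:**
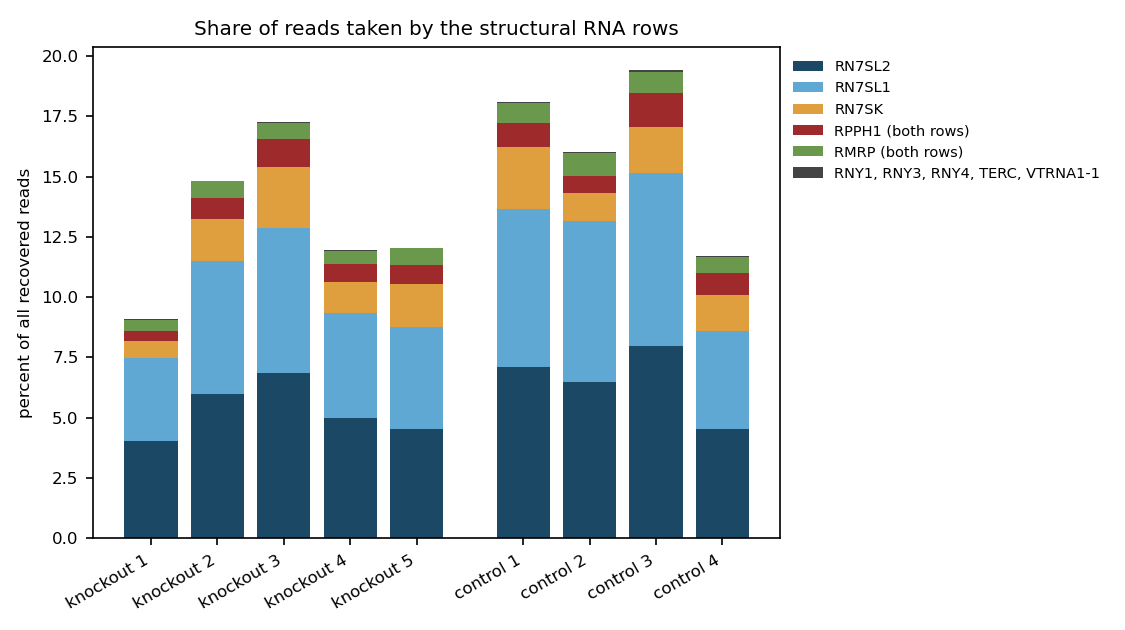
Percent of all recovered reads taken by the structural RNA rows in each library, as stacked bars from 0, knockout libraries on the left and control libraries on the right. RN7SL1 and RN7SL2 make up most of every bar, and the total runs from 9.08% in knockout 1 to 19.4% in control 3.

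7SL made up most of this signal. RN7SL1 and RN7SL2 together took between 7.48% and 12.9% of all reads in knockout libraries and between 8.60% and 15.1% in control libraries. They held 72.5% to 82.4% of the reads of the 12 rows in knockout libraries, and 73.5% to 82.0% in control libraries.

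RN7SL2 had 1201213, 1695729, 1709287, 854176 and 760956 normalized counts in knockout libraries 1 to 5, and 1790192, 2186142, 2213372 and 809305 in control libraries 1 to 4. Control 4 was low with knockout 4 and knockout 5, and the other 3 control libraries lay above all 5 knockout libraries. On the log2 scale the difference was -0.47, with a 95% interval from -1.87 to 0.93, and did not pass (limma adjusted p = 0.85). RN7SL1 averaged 1111660.5 ± 404445 in the knockout clone (SD, n = 5) and 1655707 ± 664071.5 in the control clone (SD, n = 4), with a log2 fold change of -0.53 and an interval from -1.92 to 0.85 (limma adjusted p = 0.83). Its 3 lowest libraries were again knockout 5, control 4 and knockout 4.

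Within a library the pair stayed close. The ratio of RN7SL2 to RN7SL1 was between 1.07 and 1.16 in knockout libraries and between 0.968 and 1.116 in control libraries, overlapping between the clones, and it does not depend on scaling. RN7SL3 differs from RN7SL1 at 7 of 299 bases and is not among the 10. It had 18255, 24374, 26454, 13551 and 13744 normalized counts in knockout libraries 1 to 5, and 35638, 82515, 60931 and 18063 in control libraries 1 to 4. Control 4 again lay among the knockout libraries, and the log2 fold change of -1.19 (SE 0.44) did not pass (limma adjusted p = 0.44), while DESeq2 gave an adjusted p of 0.040.

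Set against RN7SL1 plus RN7SL2 of the same library, RN7SL3 came to 0.82%, 0.75%, 0.82%, 0.85% and 0.93% in knockout libraries 1 to 5. In control libraries 1 to 4 it came to 1.04%, 1.86%, 1.45% and 1.17%. All 4 control values lay above all 5 knockout values. This ratio was picked after its values were seen among others of the kind, so it was given no test. The other within-library ratios computed overlapped between the clones. Among single rows, groups did not overlap for 3.95% of all tested rows, and 2.60% did so with the knockout clone lower.

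**Figure D2:**
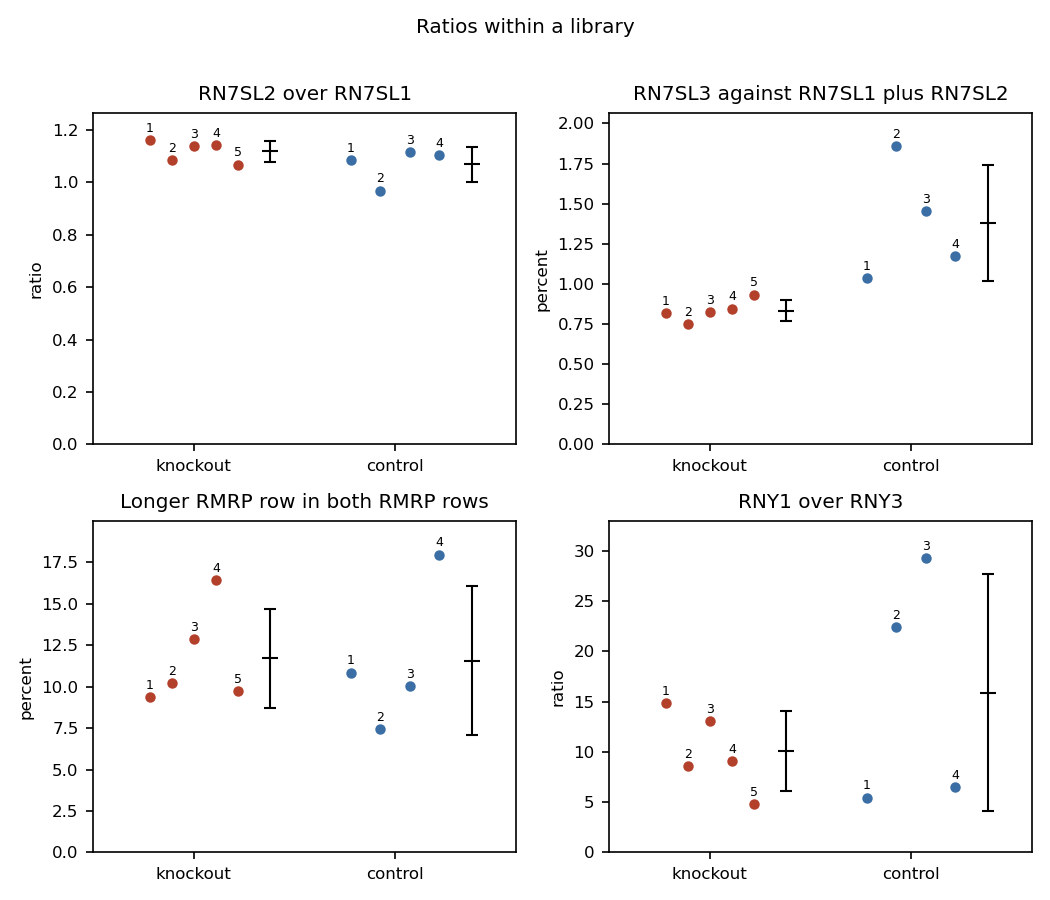
Ratios within each library, knockout on the left of each panel and control on the right, with replicate numbers beside the points and the mean ± SD as a black bar. RN7SL2 over RN7SL1, the longer RMRP row in both RMRP rows, and RNY1 over RNY3 overlap between the clones, while RN7SL3 against RN7SL1 plus RN7SL2 is at most 0.93% in knockout libraries and at least 1.04% in control libraries. The RN7SL3 ratio was picked after its values were seen and was given no test.

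RN7SK overlapped between the clones, with its highest library at 3.01 times its lowest. It had 216361, 499874, 629134, 223646 and 301515 normalized counts in knockout libraries 1 to 5, and 651500.5, 400353, 530439.7 and 268104 in control libraries 1 to 4. Knockout 1 was lowest and control 1 highest, and they share a replicate number. The fitted log2 change was -0.37 with an interval from -1.48 to 0.75 (limma adjusted p = 0.86). Under quantile normalization it turned to 0.06. A row named 7SK at the same locus (ENSG00000202198), which holds every 31-base stretch of RN7SK, averaged 810 ± 992 normalized counts in the knockout clone (SD, n = 5) and 1080.03 ± 1116 in the control clone (SD, n = 4). That is far below the RN7SK row in every library.

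The RNase P and RNase MRP RNAs came next. The longer RMRP row was the only one of the 12 whose groups did not overlap. It had 12094, 19866, 21296.5, 14764 and 11349 normalized counts in knockout libraries 1 to 5, and 22498, 23859.9, 24121 and 21431 in control libraries 1 to 4. The control libraries lay close together, with a coefficient of variation of 5.45% against 28.4% in the knockout clone, and the highest knockout library reached just under the lowest control library. Its log2 fold change was -0.58, with an interval from -1.09 to -0.06. It did not pass over all rows (limma adjusted p = 0.51, unadjusted 0.032). It was also the only one of the 12 rows with an unadjusted limma p under 0.05, where 8.63% of all tested rows had one and 5.05% had one with lower values in the knockout clone. Groups did not overlap for 3.95% of all tested rows, and 2.60% did so with the knockout clone lower, beside this 1 row of 12.

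The shorter RMRP row, whose sequence lies wholly inside the longer one, took most of the RMRP reads. It had 117196, 174877, 144313, 75012 and 105232.5 normalized counts in knockout libraries 1 to 5, and 184849.6, 296430.4, 216469.6 and 97832 in control libraries 1 to 4. Control 4 lay below 4 knockout libraries, so the groups overlapped. It differed by -0.64 on the log2 scale, with an interval from -1.55 to 0.27 (limma adjusted p = 0.73). In each of the 4 pairs that share a replicate number both rows had less signal in the knockout library. Under quantile normalization the value of the shorter row turned to 0.30, while that of the longer row stayed negative. The longer row held 9.35% to 16.4% of the RMRP signal in knockout libraries and 7.45% to 18.0% in control libraries. Summed over both rows, RMRP overlapped between the clones, at 89776 to 194743 normalized counts in knockout libraries and 119262 to 320290 in control libraries. The separation thus holds for the longer row and not for the gene, and the split of reads between the rows was not tested.

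RPPH1 also has a shorter row nested in a longer one. The shorter row (333 bases, chr14:20343075-20343407 on the minus strand) had 121868, 243866.5, 290435, 128419.6 and 132706 normalized counts in knockout libraries 1 to 5, and 252097, 241736, 386471 and 158790.1 in control libraries 1 to 4. Knockout 1, 4 and 5 were low, below every control library, and knockout 2 and 3 lay among the control libraries. The fit gave a log2 fold change of -0.53 with an interval from -1.48 to 0.42 (limma adjusted p = 0.78). The longer row (638 bases), which GENCODE 29 names AL355075.4 and which overlaps an exon of PARP2 on the other strand, averaged 2401 ± 1307 in the knockout clone (SD, n = 5) and 3713 ± 1189 in the control clone (SD, n = 4), with a log2 fold change of -0.74 (SE 0.37, limma adjusted p = 0.65). No source used here says whether the counting used the strand, so its reads and those of PARP2 cannot be told apart.

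**Figure D3:**
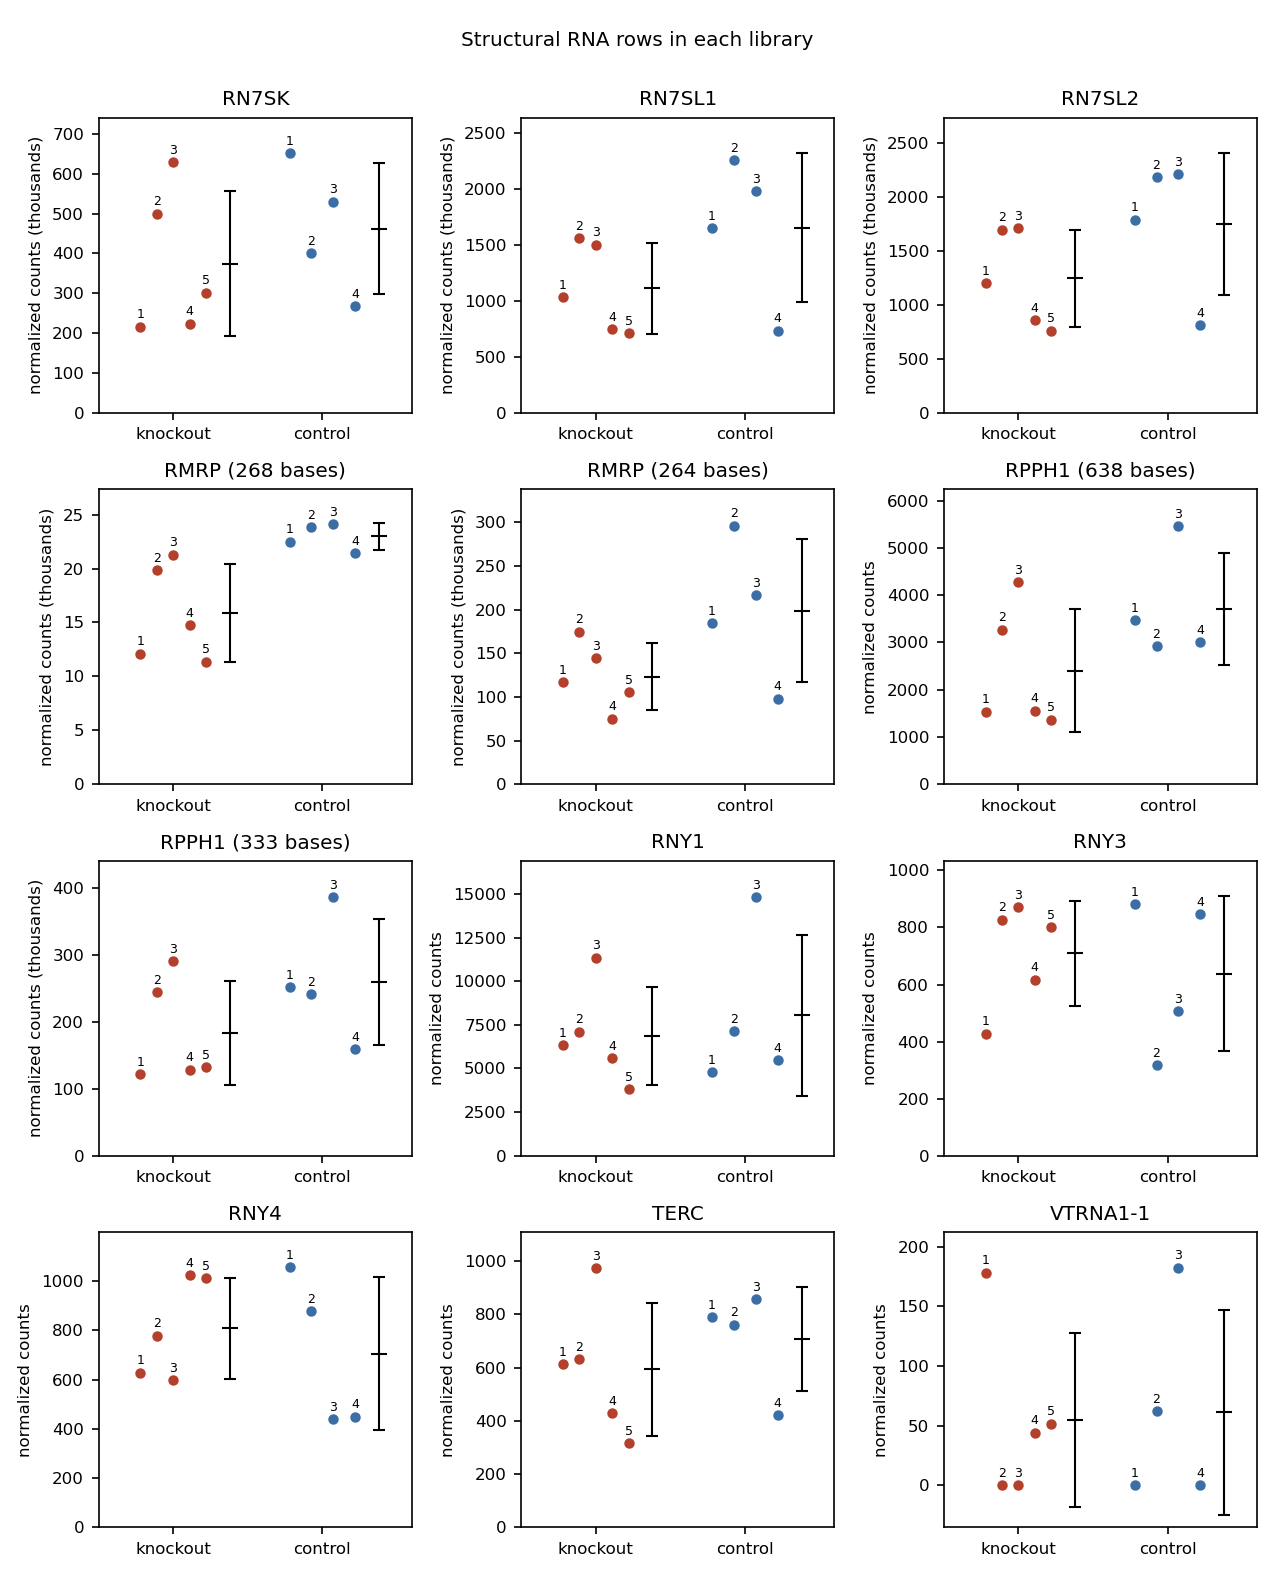
Normalized counts of each of the 12 rows in every library, knockout on the left of each panel and control on the right, numbered by replicate, with the mean ± SD (n = 5 and n = 4) as a black bar. The groups overlap in 11 panels, and in the longer RMRP row (268 bases) all 4 control libraries lie above all 5 knockout libraries.

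Of the Y RNAs, RNY1 had a negative and RNY3 and RNY4 had positive values, and none passed. RNY1, the most abundant of the 3, had 6329, 7105, 11354.5, 5595 and 3829.96 normalized counts in knockout libraries 1 to 5, and 4797, 7122, 14795 and 5464 in control libraries 1 to 4. Replicate 3 was the highest library of each clone. The fitted log2 change was -0.17 with an interval from -1.03 to 0.68 (limma adjusted p = 0.91), and its sign turned under protein-coding scaling, quantile normalization and the replicate block.

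RNY3 had 427, 828, 869.8, 617 and 802 normalized counts in knockout libraries 1 to 5, and 882, 319, 506 and 845 in control libraries 1 to 4. Knockout 1 and control 2 were low, and the log2 fold change was 0.22 with an interval from -0.52 to 0.96 (limma adjusted p = 0.87). RNY4 had 627, 778, 596, 1024 and 1011 in knockout libraries 1 to 5, and 1055, 876, 439 and 449.8 in control libraries 1 to 4. Control 3 and control 4 were below all knockout libraries and control 1 above all of them, and the log2 fold change was 0.27 with an interval from -0.42 to 0.95 (limma adjusted p = 0.83).

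The balance of the Y RNAs overlapped between the clones. RNY1 stood at 4.78 to 14.8 times RNY3 in knockout libraries and at 5.44 to 29.2 times in control libraries. Copies of Y RNAs annotated as pseudogenes (54 rows) summed to 31.4% to 129% of the signal of the 3 genes in knockout libraries, and to 20.3% to 105% in control libraries. The split of reads between genes and copies was not tested, so the values of the single Y RNA rows are uncertain. RNY5, the remaining human Y RNA, had 0 reads in 2 of 5 knockout libraries and 3 of 4 control libraries, and reached 196 normalized counts in knockout 2.

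TERC, the telomerase RNA, had 612, 633, 973, 429 and 315 normalized counts in knockout libraries 1 to 5, and 789, 761, 856 and 420.0 in control libraries 1 to 4. Knockout 4, knockout 5 and control 4 were low, as for 7SL. Its log2 fold change was -0.31 with an interval from -1.05 to 0.44 (limma adjusted p = 0.82). A row named Telomerase-vert at the same locus (ENSG00000277925), which shares 79.8% of the stretches of TERC, held more of the signal, 1642 ± 566 normalized counts in the knockout clone (SD, n = 5) and 2192 ± 584 in the control clone (SD, n = 4), with a log2 fold change of -0.44 (SE 0.29, limma adjusted p = 0.74).

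VTRNA1-1 had reads in some libraries of each clone only. It had 178, 0, 0, 44.1 and 51.6 normalized counts in knockout libraries 1 to 5, and 0, 62.1, 182 and 0 in control libraries 1 to 4. Both clones had libraries at 0, where a floor of 3 reads comes to 3.38 and 3.49 normalized counts in knockout 2 and 3, and to 3.19 and 2.71 in control 1 and 4. The interval of the log2 fold change, 0.36, ran from -4.39 to 5.12 (limma adjusted p = 0.96), and its sign depended on the fit. Its neighbour VTRNA1-3 was better covered, with 121, 612, 191, 44.8 and 508 in knockout libraries 1 to 5, and 1029.6, 979, 2262 and 551 in control libraries 1 to 4. Knockout 2 lay above control 4, the only overlap, and the log2 fold change of -2.39 (SE 0.74) did not pass (limma adjusted p = 0.30, unadjusted 0.0092).

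Levels of different RNAs were compared per length, in normalized counts per 100 bases of the full annotated length. How well the shortest RNAs are recovered beside the longer ones was not tested, so the order is a rough one. RN7SL2 stood highest, at 414757 ± 149785 in the knockout clone (SD, n = 5) and 583251 ± 218705 in the control clone (SD, n = 4). RN7SL1 came next, at 371793 ± 135266 in the knockout clone and 553748 ± 222098 in the control clone, less than 1 SD between libraries away. Within a library, RN7SL2 had 1.07 to 1.16 times the normalized counts of RN7SL1 in knockout libraries and 0.968 to 1.116 times in control libraries. RN7SK followed at 114057 ± 55728 in the knockout clone and 141036 ± 50401.5 in the control clone.

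The shorter RPPH1 row stood at 55093 ± 23498 in the knockout clone and 78010.1 ± 28295 in the control clone, and the shorter RMRP row at 46714 ± 14420.3 in the knockout clone and 75339 ± 31108 in the control clone, again less than 1 SD apart. RNY1 averaged 6056 ± 2476 in the knockout clone and 7119 ± 4075 in the control clone, and the longer RMRP row 5923 ± 1683 in the knockout clone and 8574 ± 468 in the control clone, so their order differed between the clones within their spread. RNY4 stood at 841 ± 212 in the knockout clone and 735 ± 323 in the control clone, and RNY3 at 695 ± 181 in the knockout clone and 625 ± 267 in the control clone. Below them lay the longer RPPH1 row, at 376 ± 205 in the knockout clone and 582 ± 186 in the control clone, then TERC, at 109.5 ± 46.3 and 131 ± 36.1 in the knockout and control clones, and VTRNA1-1, at 55.3 ± 73.8 and 61.7 ± 86.8 in the knockout and control clones. The level of TERC leaves out the Telomerase-vert row at the same locus, which held more signal, so its place in this order is uncertain.

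Over the comparison of the clones, 0 of the 12 rows passed limma at an adjusted p under 0.05, where 0.540% of the 27777 tested rows did, 0.115% higher and 0.425% lower in the knockout clone. All 12 rows were among those tested. EdgeR and DESeq2 also called 0 of them, against 0.544% and 2.13% of all rows, and the authors' deposited table has adjusted p-values between 0.359 and 0.995 for them. Of the 12 fold changes 9 were negative, against 49.0% of all tested rows, and their median was -0.42, against 0.01 over all tested rows. With 1 library left out, the median of the 12 rows ran from -0.68 (without control 4) to -0.28 (without knockout 4). Under quantile normalization 6 were negative and the median was -0.02. Under scaling to equal protein-coding totals the median was -0.21, in a fit where the median of all rows shifted up by 0.20. Protein-coding rows took 26.3% to 47.5% of the reads in knockout libraries and 27.5% to 50.8% in control libraries, and the part of this in the values was not tested.

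**Figure D4:**
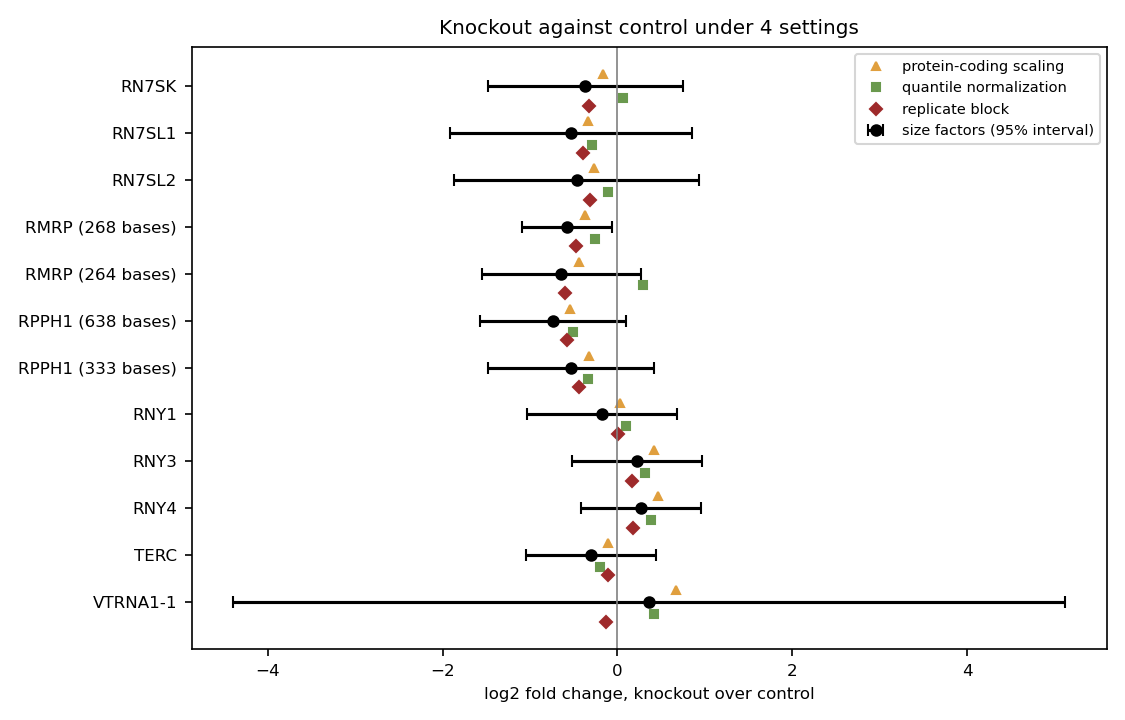
Log2 fold change, knockout over control, of each of the 12 rows: black points with 95% intervals from limma on the authors' size factors, and coloured points, set slightly above or below, for protein-coding scaling, quantile normalization and the replicate block. The intervals reach across 0 for 11 rows, and that of the longer RMRP row (268 bases) ends at -0.06.

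The proteins that work with these RNAs were read from the same fit. Of 91 partner genes tested, 0 passed limma, edgeR or DESeq2, and 1 had an unadjusted limma p under 0.05 (8.63% of all rows did). On the log2 scale 75 (82.4%) lay below 0, against 49.0% of all tested rows, and their median was -0.16. Signs against 0 depend on the scaling and on 1 library. With equal protein-coding totals 34 lay below 0 and the median was 0.05, in a fit where the median of all rows shifted up by 0.20. Relative to the median of all rows, the partner median was -0.17 on the authors' size factors and -0.16 with equal protein-coding totals. Under quantile normalization 48 lay below 0 and the median was -0.02, or -0.03 relative to all rows. Without control 3, 41 lay below 0 and the median was 0.02, or -0.001 relative to all rows. The fold changes of partner genes that follow are on the authors' size factors. The gene with the unadjusted p was POLR1C, a subunit shared by RNA polymerases I and III, with 271 ± 44.9 normalized counts in the knockout clone (SD, n = 5) and 373 ± 82.5 in the control clone (SD, n = 4) and a log2 fold change of -0.45 (limma adjusted p = 0.53).

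In the 7SK particle, 0 of 13 genes were called and the median was -0.10. LARP7, which protects the 3′ end of 7SK, stood at -0.17 (SE 0.30), its capping enzyme MEPCE at -0.10 (SE 0.28) and the kinase inhibitor HEXIM1 at -0.29 (SE 0.35) on the log2 scale. In the signal recognition particle and its receptor, 0 of 8 were called, and SRP9 and SRP14, which bind the Alu part of 7SL, stood at -0.05 (SE 0.26) and -0.04 (SE 0.29), and the signal-binding GTPase SRP54 at 0.02 (SE 0.23). Of 11 RNase P and RNase MRP proteins 0 were called, with a median of -0.14 that turned to 0.07 with equal protein-coding totals and to 0.09 without control 3. Relative to the median of all rows these 3 medians were -0.15, -0.14 and 0.07. Among them POP1 stood at -0.22 (SE 0.39), RPP25 at -0.14 (SE 0.30) and RPP30 at -0.13 (SE 0.24).

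Among Y RNA partners 0 of 11 were called, with RO60, which binds misfolded small RNAs, at -0.11 (SE 0.16) and SSB, which encodes La, at -0.32 (SE 0.25). Telomerase had 0 of 12 called, with the reverse transcriptase TERT at -0.09 (SE 0.19) and the pseudouridine synthase DKC1 at -0.17 (SE 0.15). Of the 6 vault genes 0 were called, and MVP, the major vault protein, stood at 0.40 (SE 0.39). RNA polymerase III and its factors had 0 of 32 called and a median of -0.13. The catalytic subunit POLR3A stood at -0.18 (SE 0.16), the stem cell subunit POLR3G at 0.05 (SE 0.25), the factors BRF1 and BRF2 at 0.21 (SE 0.14) and 0.30 (SE 0.22), and the repressor MAF1 at -0.23 (SE 0.29).

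The annotated copies of the abundant RNAs were counted apart. Of 677 rows named as RN7SL pseudogenes 445 passed the filter on low counts, 0 were called, 35.1% lay below 0 on the log2 scale, against 49.0% of all tested rows, and the median was 0.28. This direction rests on control 3: without it the median was -0.02, with 227 copies below 0 and 218 above. Of 293 RN7SK pseudogene rows 72 were tested, 0 were called, 26.4% lay below 0 and the median was 0.43, or 0.10 without control 3, when 29 lay below 0. Without the filter 78 RN7SK copies lay below 0 and 116 above, with a median of 0.37. In edgeR 25 of the 72 lay below 0, with a median of 0.27. Summed, the RN7SL copies held 44135 ± 6996 normalized counts in the knockout clone (SD, n = 5) and 48760.1 ± 12857 in the control clone (SD, n = 4), which was 1.40% to 2.52% and 1.06% to 2.50% of RN7SL1 plus RN7SL2. The RN7SK copies held 0.57% to 2.16% of RN7SK in knockout libraries and 0.52% to 1.80% in control libraries.

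Among 28 tested Y RNA copies the median was 0.36, or -0.18 without control 3, and 1 passed, where 0.540% of all tested rows did and 0.115% did with the knockout clone higher. This was RNY4P24, which had 183, 153, 320.2, 89.7 and 153 normalized counts in knockout libraries 1 to 5 and 0 reads in control libraries 1 to 4 (limma adjusted p = 5.4e-05). RNY4P24 passed the filter on low counts only through the knockout libraries, so its direction was fixed before the test. Its p-value therefore gives no support to a difference. The parent gene RNY4 had reads in all 9 libraries. Of the 3 copies of RMRP and RPPH1 that have rows, all were at 0 in every library.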

How the data were processed

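Total RNA of 9 libraries was sequenced after rRNA depletion with a stranded kit, per the labels' protocols. The submitters' processing notes name hg38 and the tools fastp, kallisto and DESeq2, without a version, and no source used here gives the annotation release or the strand setting. In each library column, the deposited table holds a signal, the gene counts that the authors divided by a size factor. Within a tolerance of 1e-06, dividing a column by its lowest nonzero entry gave whole reads for 100% of entries, and these are the recovered reads. The authors' mean signal, log2 fold change, test score and p-values stand in the same deposited table, and the score was not used.

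Values were tested as log2(value + 1) in limma 3.58.1 (R 4.3.3), with the prior spread following mean expression and clone as the only term, on 27777 rows kept by filterByExpr at a minimum count of 10, with Benjamini-Hochberg adjustment over these and a threshold of 0.05. Fold changes on this scale understate changes of rows with few reads. edgeR 4.0.16 and DESeq2 1.42.0 on the recovered reads were alternatives, edgeR calling 151 rows. The script was tested on simulated counts. Other alternatives changed the filter, the pseudocount, the scaling, or left out 1 library.

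Because the batch tag of each library repeats its replicate number, libraries of equal number were taken as pairs. Their deviations from the mean of their clone had correlations of 0.07, 0.02, 0.25 and 0.33 in pairs 1 to 4. In the block fit knockout 5 has no partner and adds nothing to the fold change.

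The genes and lists were chosen with earlier results of these data known. Named were the 10 RNAs, 19 partner genes, 5 further family rows, and any called partner or copy. POLR1C and the 7SK and Telomerase-vert rows fall outside that rule and were picked after their values were seen. Sequences and positions came from GENCODE 29 (GRCh38), which matched all 10 names; some sequences are not reported here, and the likeness of profiles was searched in 14399 rows averaging 50 or more normalized counts. The 3 rows that the authors mark as knocked out were checked: gene.human_00015544 averaged 57.5 ± 18.4 normalized counts in the knockout clone (SD, n = 5) and 2699.5 ± 1198 in the control clone (SD, n = 4). gene.human_00001528 averaged 116 ± 35.9 in the knockout clone and 698 ± 299 in the control clone, and the third row 1452 ± 307 in the knockout clone and 2403 ± 841 in the control clone, where the clones overlapped and limma gave an adjusted p of 0.44.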

Additional observations from a re-analysis of the deposited data

Results flagged for a closer look

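VTRNA1-1 was the only row of the 12 in which 1 library stood far from the rest of its clone. Knockout 1 had 178 normalized counts, while the other 4 knockout libraries had between 0 and 51.6. Its gap to the nearest library was 0.7104 of the whole range, just above the critical value of 0.71 for 5 libraries. The rule was applied to normalized counts and not to log2 values. With 24 groups examined, chance alone flags about 1 in 20.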

How the results depend on the processing

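None of the 12 rows and none of the 91 partner genes passed under any of the 19 alternatives, so both counts were 0 throughout. The number of called rows in the whole table was 150, against 593 with DESeq2 and 43 with the replicate block, and 79 to 186 when 1 library was left out, while filters, pseudocounts, scalings and edgeR kept it within 1.5 times. The block changed no call among the 12 rows. Signs turned for 5 of the 12 rows. Quantile normalization gave 0.063 for RN7SK, 0.30 for the shorter RMRP row and 0.10 for RNY1. RNY1 was 0.029 under protein-coding scaling and 0.012 with the replicate block, and ran from -0.38 to 0.17 with 1 library left out, turning without knockout 5 (0.012) or control 3 (0.17). RNY3 ran from -0.074 (without control 2) to 0.41. VTRNA1-1 was -0.055 with edgeR, -0.078 with DESeq2 and -0.13 with the replicate block, and ran from -0.76 to 1.75 with 1 library left out. The cause was not tested. The log2 ratio of the summed 12 rows, -0.51, ran from -0.74 to -0.31 over 13 alternatives. The 7SL, longer RMRP, RPPH1, RNY4 and TERC rows kept their sign in all 19 fits, but their size moved with single libraries. RN7SL1 ran from -0.89 (without control 4) to -0.35 (without control 2), RN7SL2 from -0.80 (without control 4) to -0.31 (without knockout 5), the shorter RPPH1 row from -0.74 (without control 4) to -0.32 (without control 3), TERC from -0.54 (without control 4) to -0.10 (without knockout 5) and RNY4 from 0.075 (without control 3) to 0.50 (without control 1). The longer RMRP row ran from -0.70 to -0.47 with 1 library left out. Scaling moved these sizes too. Under quantile normalization the longer RMRP row was at -0.26, RN7SL1 at -0.29 and RN7SL2 at -0.11. The direction of the partner genes and of the RN7SL and Y RNA copies, taken as medians, turned without control 3. VTRNA1-1 had 0 reads in 4 of 9 libraries.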

Other observations

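The profiles of the structural RNAs over the 9 libraries were set beside those of all other rows with a symbol, as a description without a test, since libraries share depth, scaling and passage. On log2 values RN7SL1 and RN7SL2 correlated at 0.99, RN7SL2 and TERC at 0.92, and RN7SK and the shorter RPPH1 row at 0.90. RNY4 correlated at -0.09 with RN7SL1 and at -0.65 with RNY1. The rows most like RN7SL2 were SNHG8 (0.99), a snoRNA host gene, RNVU1-28 (0.98), a variant U1 snRNA, and FLNA (0.98), which encodes filamin A. Those most like RN7SK were ZNF28, ZNF286B and CD72, each at 0.96. The longer RMRP row lay nearest EOGT (0.96), SH3BGR (0.95) and C16orf74 (0.94), and the shorter one nearest SMOX (0.97), PTTG1IP (0.96) and LAPTM4A (0.95), so the nested rows had no gene in common among their 3 nearest. The nearest to RNY1 were RPS10-NUDT3 (0.98), EMC9 (0.97) and BPHL (0.97), and to VTRNA1-1 MIR5690 (0.98), SCARNA10 (0.97) and MIR367 (0.97), where 4 libraries at 0 weigh on the value. The 3 rows named for each RNA row are the highest of 14399 values.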
